A study of Mus musculus with 10 samples.

Results

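The circadian clock genes described here are 10 protein-coding genes, chosen by symbol, and all 10 were found in the tables of both ages, among 46977 genes in either table. They are Arntl (the gene of BMAL1), Clock, Npas2, Per1, Per2, Per3, Nr1d1, Nr1d2, Dbp and Tef. RNA-seq was done on dissected mouse hearts labelled Prdm16 knockout (KO) or control. The groups were KO hearts at 3 months (3 libraries), control hearts at 3 months (3 libraries), KO hearts at 12 months (2 libraries) and control hearts at 12 months (2 libraries). Prdm16 encodes a zinc-finger transcriptional regulator, and the title of the series ties its loss to heart failure that depends on age. The labels give no strain, sex, allele, Cre driver or treatment for any group and do not say whether each library is a separate mouse. The p-values therefore cover only the spread from library to library, part of which may be technical. They also do not give the hour of day at which hearts were taken, and its part in the values was not tested.

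The clock is a feedback loop of transcription that runs in nearly every cell, including cardiomyocytes. BMAL1 pairs with CLOCK or NPAS2 on E-box sequences and turns on the Per, Cry and Nr1d genes and the output factors Dbp and Tef, whereupon PER and CRY proteins repress that activation. NR1D1 and NR1D2 (REV-ERB alpha and beta) repress Arntl through ROR elements, so Arntl and the genes it drives peak at opposite times of day.

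Promoters were searched because these members are linked to each other through such elements. RefSeq windows (GRCm38.p6) from 250 bases before to 50 after an annotated start were held for 9 of the 10 members, in 14 windows, and none was used for Per2. The motifs were searched on both strands: the E-box CACGTG, the D-box TTANGTAA to which DBP and TEF bind, and the ROR element, AGGTCA directly preceded by AANT. An exact match was present in 4 members. Of 32851 windows of the same length over all genes, 7.15% held the E-box, 2.32% the D-box and 0.219% the ROR element. The sequences with a match follow, with the motif in capitals. No window of Clock, Npas2, Nr1d1, Nr1d2 or Dbp held a match.

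Per1, chr11:69098699-69098948, plus strand, the 250 bases before the start, with an E-box 166 to 161 bases before it: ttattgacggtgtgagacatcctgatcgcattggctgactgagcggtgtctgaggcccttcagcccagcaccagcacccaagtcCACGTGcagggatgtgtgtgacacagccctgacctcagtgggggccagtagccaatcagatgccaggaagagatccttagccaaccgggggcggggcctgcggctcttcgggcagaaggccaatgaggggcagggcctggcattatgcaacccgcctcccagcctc
Tef, chr15:81802423-81802672, plus strand, the 250 bases before a start, with an E-box 127 to 122 bases before it: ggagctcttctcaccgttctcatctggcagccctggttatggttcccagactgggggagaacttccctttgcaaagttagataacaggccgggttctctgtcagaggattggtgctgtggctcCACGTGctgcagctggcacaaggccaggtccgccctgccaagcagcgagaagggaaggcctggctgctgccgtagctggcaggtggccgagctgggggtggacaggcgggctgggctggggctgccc
Tef, chr15:81811164-81811413, plus strand, the 250 bases before another start, with an E-box 138 to 133 bases before it: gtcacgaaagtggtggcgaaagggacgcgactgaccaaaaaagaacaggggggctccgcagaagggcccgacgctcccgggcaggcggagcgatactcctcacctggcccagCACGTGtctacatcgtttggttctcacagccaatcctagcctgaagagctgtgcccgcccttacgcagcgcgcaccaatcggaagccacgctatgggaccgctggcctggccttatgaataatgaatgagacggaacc
Per3, chr4:151044666-151044915, minus strand, the 250 bases before the start, with D-boxes 205 to 198 and 158 to 151 bases before it: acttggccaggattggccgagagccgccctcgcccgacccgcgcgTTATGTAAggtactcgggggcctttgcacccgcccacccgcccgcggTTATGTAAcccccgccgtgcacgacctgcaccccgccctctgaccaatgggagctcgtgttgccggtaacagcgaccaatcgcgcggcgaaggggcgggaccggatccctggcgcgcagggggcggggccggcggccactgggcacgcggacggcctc
Arntl, chr7:113207528-113207557, plus strand, 30 bases of transcribed sequence, with a ROR element 28 to 37 bases after the start: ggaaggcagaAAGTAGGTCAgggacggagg

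A match describes the letters of these windows and not binding in these hearts, and a window without a match says nothing of elements elsewhere. Per1 and Arntl each had another window, from chr11:69099902 and chr7:113207215, without a match. The start named above for these genes is thus not their only annotated start. The Per1 window with the E-box lay within the bounds of the gene given next. By GENCODE M21 coordinates (GRCm38), Arntl lay at chr7:113207465-113314126, Clock at chr5:76209868-76304792, Npas2 at chr1:39193731-39363236 and Per1 at chr11:69095217-69109960. Per2 lay at chr1:91415982-91459324, Per3 at chr4:151003652-151044665, Nr1d1 at chr11:98767932-98775333 and Nr1d2 at chr14:18204054-18239127. Dbp lay at chr7:45705088-45710203 and Tef at chr15:81802421-81826863. Per3 was the only member on the chromosome of Prdm16, 3.27 Mb from it, and lay within Camta1 on the same strand. The ends of Dbp and Nr1d1 overlap those of Sphk2 and Thra on the opposite strand. The libraries of 3 months were strand-specific per the labels. For 12 months the labels state no strandedness, so reads of such neighbours may not be told apart there.

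Values were deposited as FPKM, fragments scaled by transcript length and by library size, which allows levels of different genes to be set side by side. Summed FPKM per library was 516272 to 718787 at 3 months and 890181 to 1171104 at 12 months. Steps in low values put the depth of KO replicates 1 and 2 at 12 months at 0.847 and 0.696 of control replicate 2, and of control replicate 1 at 0.953; the depth at 3 months is unknown. Prdm16 itself did not separate the labels at 3 months, with 1.43, 0.76 and 2.03 FPKM in KO libraries against 1.44, 2.23 and 1.61 FPKM in controls. At 12 months it was at 4.02 and 3.58 FPKM in KO libraries against 6.31 and 5.05 FPKM in controls. Xist was at 0.0911 and 0.024 FPKM in KO libraries of 12 months against 33.1 and 31 FPKM in controls, and the Y-linked Ddx3y at 24.5 and 20.7 FPKM against 0.0352 and 0.0114 FPKM, so genotype label and sex-linked expression cannot be told apart at that age. All 7 cardiomyocyte markers were detected, with summed levels of 30722 to 31835 FPKM in KO and 23739 to 29693 FPKM in control libraries of 3 months, and of 60214 to 60817 FPKM in KO and 56828 to 56860 FPKM in control libraries of 12 months. Whole hearts were measured, so fewer cells of a type and less RNA per cell cannot be told apart.

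At 3 months the clock genes of KO hearts were close to those of controls, and none was called. At 12 months the 2 KO libraries stood in different states. KO replicate 1 had almost no Arntl and high Per1, Per2, Per3, Dbp and Tef, whereas KO replicate 2 had Arntl near the controls and the lowest Dbp and Per3 of that age. Per1 and Per2, 2 of 10 members, were above both controls in both KO libraries, as were 27.3% of all genes tested. Per1 was at 3.29 times the control mean or more.

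**Figure D1:**
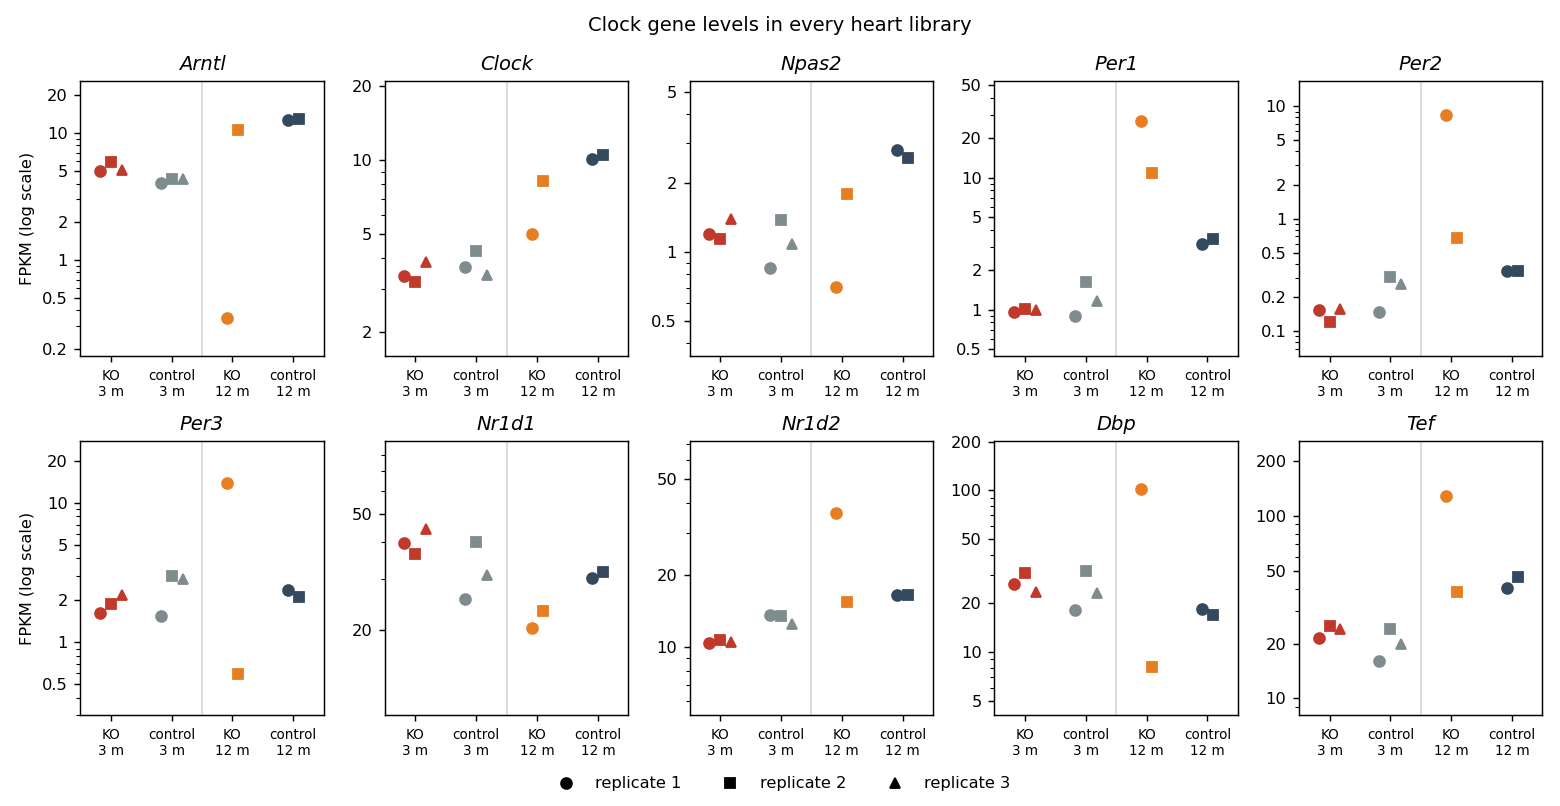
FPKM of each clock gene (vertical axes, log scale, a separate range for each gene) in every library, by group; circles, squares and triangles are replicates 1, 2 and 3, and a grey line separates the ages, whose tables were made separately. At 3 months the groups lie close together for most genes, and at 12 months KO replicate 1 stands away from the 2 controls for Arntl (0.351 FPKM) and Dbp (101 FPKM) in opposite directions.

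The activator arm was nearly level between the groups at 3 months. Arntl was at 5.03, 5.91 and 5.08 FPKM in KO libraries against 4.05, 4.33 and 4.34 FPKM in control libraries. Every KO library was above every control. The difference was 0.27 on the log2(FPKM + 1) scale (SE 0.11), with an unadjusted p of 0.0396 and an adjusted p of 0.251 in limma with Benjamini-Hochberg adjustment over 12200 genes, and an exact two-sided permutation p of 0.1, the smallest that 3 against 3 libraries allow. Clock, the partner of BMAL1, was at 3.39, 3.21 and 3.87 FPKM in KO libraries against 3.7, 4.28 and 3.43 FPKM in controls, which overlapped. Npas2, its paralog, was at 1.2, 1.14 and 1.39 FPKM in KO libraries against 0.856, 1.39 and 1.09 FPKM in controls, which also overlapped. In limma the differences of Clock and Npas2 had adjusted p of 0.718 and 0.757.

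The Per genes, which encode the repressors of that arm, were the lowest members at 3 months together with Npas2. Per1 was at 0.952, 1.01 and 0.994 FPKM in KO libraries against 0.891, 1.63 and 1.15 FPKM in controls. Per2 was at 0.154, 0.12 and 0.156 FPKM in KO libraries against 0.149, 0.303 and 0.264 FPKM in controls. Its mean was under the minimum of 1 FPKM set for the test, so it was not tested at 3 months. Per3 was at 1.61, 1.88 and 2.17 FPKM in KO libraries against 1.53, 3.01 and 2.83 FPKM in controls. The groups overlapped for all 3 Per genes, since control replicate 1 was about as low as the KO libraries.

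Of the nuclear receptors that repress Arntl, Nr1d1 was the highest member at 3 months, at 39.8, 36.6 and 44.6 FPKM in KO libraries against 25.5, 40.1 and 31 FPKM in controls. Its groups overlapped through control replicate 2. Nr1d2 was at 10.4, 10.7 and 10.6 FPKM in KO libraries against 13.6, 13.5 and 12.5 FPKM in controls. All 3 KO libraries were lower than all 3 controls, and the KO values lay within 0.04 of each other on the log2(FPKM + 1) scale. The difference was -0.30 (SE 0.11), with an unadjusted p of 0.0212, an adjusted p of 0.206 in limma and an exact permutation p of 0.1.

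The output factors Dbp and Tef, both of the PAR bZIP family, overlapped between groups at 3 months. Dbp was at 26.5, 30.8 and 23.3 FPKM in KO libraries against 18.3, 31.8 and 23.2 FPKM in controls. Tef was at 21.6, 25.1 and 24 FPKM in KO libraries against 16.1, 24.1 and 19.9 FPKM in controls. Control replicate 1 was the lowest control for both genes and control replicate 2 the highest. That held across the family: control replicate 2 was the highest control for 8 of 10 members and control replicate 1 the lowest for 8 of 10, whereas KO replicates 2 and 3 were each the highest KO library for 5. The median range within the group, over the 9 members tested, was 0.21 in KO and 0.47 in control libraries on the log2(FPKM + 1) scale, against 0.27 and 0.33 over all genes tested.

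In the count over members, 0 of 9 tested were called under an adjusted p of 0.05 at 3 months, where limma called 0.746% of all genes. An unadjusted p under 0.05 was given to 2 members, Arntl and Nr1d2, and to 18.2% of all genes. The groups did not overlap for the same 2 of 9 members, and for 24.7% of all genes (KO higher in 20.1% and lower in 4.6%). The median member difference, 0.09, equalled the median of all genes to 2 decimals. Other things also differed between the groups at this age. The 5 atrial markers summed to 12223 to 28368 FPKM in KO libraries and 692 to 6110 FPKM in controls, the 6 erythroid markers to 2081 to 3111 FPKM and 818 to 1113 FPKM, and the 6 lymphocyte markers to 8.38 to 13.2 FPKM and 1.93 to 3.39 FPKM. The 4 airway and lung markers summed to 0.151 to 0.319 FPKM in KO libraries and 12.8 to 32.4 FPKM in controls, with Sftpc at 0 in all. Of the atrial markers, Nppa alone was higher in every KO library than in every control, with means of 15967 and 1712 FPKM. Myl7, Myl4, Sln and Bmp10 overlapped between the groups. The atrial gene Bmp10 was at 2.58, 68.1 and 0.619 FPKM in KO libraries of 3 months against 3.24, 4.82 and 63.1 FPKM in controls. KO replicate 2, the library highest in Bmp10, was also the highest in Arntl. The part of these cell types in the small clock differences was not tested.

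The order of levels at 3 months, which FPKM gives per transcript length, was the same in KO and control libraries down to the seventh gene. In KO libraries the means ran from Nr1d1 at 40.3 ± 4.06 FPKM, Dbp at 26.9 ± 3.76, Tef at 23.6 ± 1.78, Nr1d2 at 10.6 ± 0.168, Arntl at 5.34 ± 0.496, Clock at 3.49 ± 0.344 and Per3 at 1.89 ± 0.279 FPKM to Npas2, Per1 and Per2 (SD, n = 3). The only neighbours in that order whose KO values overlapped were Dbp and Tef. In control libraries Nr1d1 averaged 32.2 ± 7.37 FPKM and Per2 0.239 ± 0.08 FPKM (SD, n = 3), and neighbours overlapped for Nr1d1 with Dbp, Dbp with Tef, Arntl with Clock, Per3 with Per1 and Per1 with Npas2.

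At 12 months the activators were lower in both KO libraries, by very different amounts. Arntl was at 0.351 and 10.6 FPKM in KO replicates 1 and 2 against 12.6 and 12.8 FPKM in controls. KO replicate 1 was 36.2-fold under the control mean, whereas KO replicate 2 was 0.835 of it. Clock was at 5.01 and 8.25 FPKM in KO libraries against 10.2 and 10.5 FPKM in controls. Npas2 was at 0.704 and 1.8 FPKM in KO libraries against 2.8 and 2.57 FPKM in controls. For all 3 genes both KO libraries were below both controls, and KO replicate 1 was the lower of the 2. The log2(FPKM + 1) differences were -1.79 for Arntl (SE 1.08), -0.61 for Clock (SE 0.24) and -0.75 for Npas2 (SE 0.29), with adjusted p of 0.523, 0.393 and 0.382 in limma over 13179 genes.

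The Per genes did not move as a unit at 12 months. Per1 was at 26.9 and 10.9 FPKM in KO libraries against 3.16 and 3.44 FPKM in controls. Both KO libraries exceeded both controls, at 8.15 and 3.29 times the control mean. The difference was 2.08 (SE 0.44), with an unadjusted p of 0.00857, an adjusted p of 0.239 in limma and an exact permutation p of 0.33, the smallest that 2 against 2 libraries allow. Per2 was at 8.42 and 0.68 FPKM in KO libraries against 0.341 and 0.342 FPKM in controls. Both KO libraries were again above both controls, at 24.7 and 1.99 times the control mean. Per2 reached the minimum mean of 1 FPKM for the test only through KO replicate 1, since every other library was under 1 FPKM. Its difference was 1.57 (SE 0.88), with an unadjusted p of 0.146 and an adjusted p of 0.496 in limma. Per3 was at 14 and 0.596 FPKM in KO libraries against 2.39 and 2.13 FPKM in controls. Here KO replicate 1 was 6.21 times the control mean and KO replicate 2 was 3.79-fold under it, so the 2 KO libraries lay on opposite sides of both controls. Camta1, the gene that contains Per3, was at 76 and 71.3 FPKM in KO libraries against 65.5 and 65.2 FPKM in controls, without such a split.

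The pair of Nr1d genes also divided at 12 months. Nr1d1 was at 20.4 and 23.4 FPKM in KO libraries against 30.3 and 31.7 FPKM in controls. Both KO libraries were lower, and this was the member on which they differed least, by 0.18 on the log2(FPKM + 1) scale. The difference from controls was -0.48 (SE 0.12), with an unadjusted p of 0.0153 and an adjusted p of 0.259 in limma. The overlapping Thra, a thyroid hormone receptor gene, was at 42.7 and 58.4 FPKM in KO libraries against 73.8 and 75.2 FPKM in controls, also lower in both. Nr1d2 was at 36.2 and 15.5 FPKM in KO libraries against 16.5 FPKM in each control. KO replicate 1 was above both controls by 1.09 on the log2(FPKM + 1) scale, and KO replicate 2 lay just under them.

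Dbp and Tef carried the widest swing in FPKM. Dbp was at 101 and 8.08 FPKM in KO libraries against 18.3 and 16.9 FPKM in controls. Tef was at 130 and 38.6 FPKM in KO libraries against 40.4 and 46.4 FPKM in controls. For both genes KO replicate 1 was above both controls, at 5.76 times the control mean for Dbp and 2.99 times for Tef, and KO replicate 2 was below both. Sphk2, which overlaps the end of Dbp, was at 8.49 and 7.37 FPKM in KO libraries against 9.35 and 9.23 FPKM in controls.

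**Figure D2:**
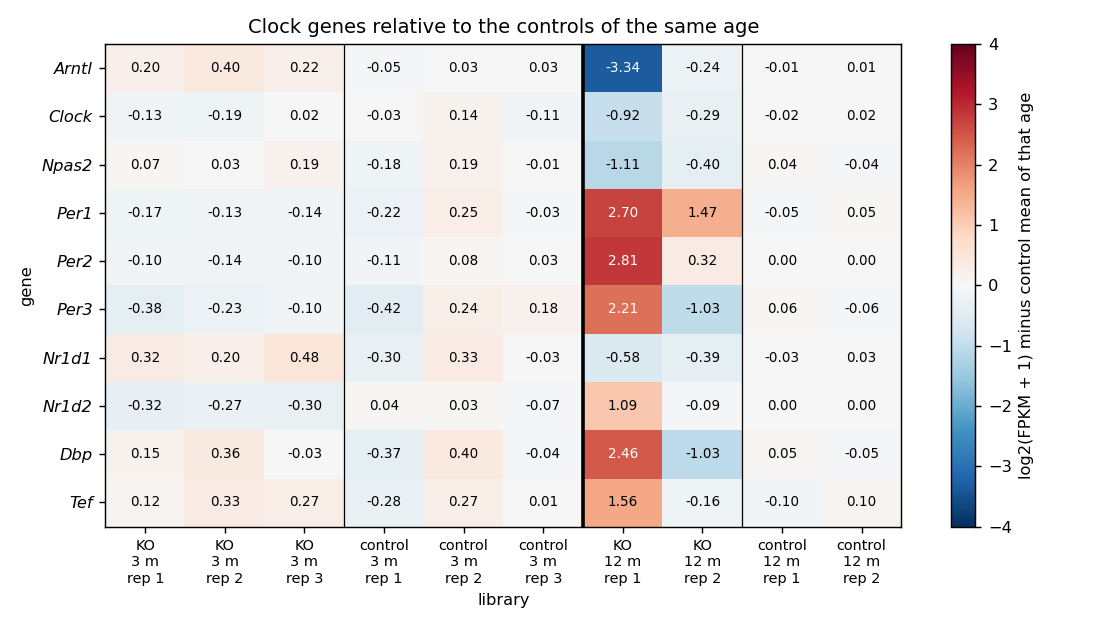
Difference of each library from the control mean of its age on the log2(FPKM + 1) scale, with clock genes in rows and libraries in columns; red is higher and blue lower, the number is printed in each cell, and the thick line separates the ages. The column of KO replicate 1 at 12 months runs from -3.34 for Arntl to 2.81 for Per2, and most other cells lie within 0.5 of the control mean.

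In the count at 12 months, 0 of 10 members were called in limma, where 0.395% of all genes were called. An unadjusted p under 0.05 was given to 2 members, Per1 and Nr1d1, and to 13.6% of all genes. The groups did not overlap for 6 of 10 members, and for 50.3% of all genes (KO higher in 27.3% and lower in 23%). Of those 6, Per1 was higher, as was Per2, which passed the filter only through KO replicate 1. Arntl, Clock, Npas2 and Nr1d1 were lower. The other 4 members, Per3, Nr1d2, Dbp and Tef, had the KO libraries on opposite sides of both controls, as did 26% of all genes. The median member difference was 0.55, against 0.01 for all genes. For these 4 the mean of the KO hearts describes neither library, and the KO mean of Dbp was 54.8 ± 66 FPKM against 17.6 ± 0.995 FPKM in controls (SD, n = 2 each).

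The distance between the 2 KO libraries is a value that the contrast of groups does not give. On the log2(FPKM + 1) scale KO replicate 1 minus KO replicate 2 was 3.50 for Dbp, 3.24 for Per3, -3.10 for Arntl, 2.49 for Per2, 1.73 for Tef, 1.23 for Per1 and 1.18 for Nr1d2. These 7 of 10 members were at least 1 log2 unit apart, as were 5.85% of all genes tested. By size of that distance among 13179 genes, Dbp ranked 45, Per3 ranked 54, Arntl ranked 61 and Per2 ranked 99. The median absolute distance was 1.48 over the 10 members and 0.28 over all genes. Between the 2 controls the medians were 0.07 and 0.08, so the members were no more spread there than other genes. Set against the control mean, 8 members of KO replicate 1 and 3 of KO replicate 2 were at least 1 log2 unit away, beside 4.29% and 7.36% of all genes. Per2, which passed the minimum mean of 1 FPKM only through KO replicate 1, is among the 7 and the 8. Those counts, its rank and the member median are thus partly set by that filter.

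The 2 KO libraries of 12 months differed in other ways too. Their ratio over all genes had a robust SD of 0.42 on the log2 scale, against 0.11 between the controls. Of the 5 atrial markers, 4 were at least 1 log2 unit lower in KO replicate 1 than in KO replicate 2, with Bmp10 at 0.23 and 25.2 FPKM in the KO libraries against 56 and 57.5 FPKM in controls. The summed level of the 5, most of it Nppa, was 13455 to 15764 FPKM in KO and 6086 to 6240 FPKM in control libraries, and none was at 0 in all. The 6 erythroid markers summed to 1956 to 2157 FPKM in KO and 10647 to 10783 FPKM in control libraries, the 5 adipocyte markers to 7.16 to 9.61 FPKM and 45 to 50.7 FPKM, and the 3 smooth muscle markers to 132 to 141 FPKM and 238 to 240 FPKM. No tested marker of those 3 lists had the KO libraries on opposite sides of both controls. Of the 7 cardiomyocyte markers 4 did, among them Myh6, a myosin heavy chain gene, which was 1.39 log2 units higher in KO replicate 1 than in KO replicate 2. The 6 lymphocyte markers summed to 2.23 to 8.72 FPKM in KO and 7.87 to 9.38 FPKM in control libraries, and Cd3g, a T cell receptor complex gene, was 9.56-fold higher in KO replicate 2 than in KO replicate 1, on opposite sides of the controls. The part of atrial, cardiomyocyte and lymphocyte content and of depth in the clock values was not tested.

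Each KO library was also set alone against the 2 controls in limma, where 1 residual degree of freedom is left and the lone library is assumed to vary like the controls. With KO replicate 1 alone, 9 of 10 members were called, all but Nr1d1, where 4.98% of all genes were called. Arntl (-3.34, adjusted p = 0.0137), Clock and Npas2 were lower in that library, and Per1, Per2, Per3, Nr1d2, Dbp (2.46, adjusted p = 0.0175) and Tef were higher. Per2 entered the fit of KO replicate 1 only because it was high in that library, so its place in that count is partly set by the filter. With KO replicate 2 alone, Per2 fell under the minimum mean of 1 FPKM and was not tested. In that fit 4 of 9 members tested were called, where 33.4% of all genes were called, so that share is near the background. Dbp (-1.03, adjusted p = 0.0173), Per3 and Nr1d1 were lower in that library and Per1 (1.47, adjusted p = 0.0154) was higher. The choice of which library to leave out thus turns the sign of Dbp and Per3.

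Dbp and Arntl are known to peak at opposite times of day, so their ratio is given for every library. The Dbp to Arntl ratio of FPKM was 5.26, 5.21 and 4.59 in KO libraries of 3 months and 4.51, 7.35 and 5.34 in controls, which overlapped. At 12 months it was 289 and 0.761 in KO libraries and 1.46 and 1.32 in controls. KO replicate 1 lay far above both controls and KO replicate 2 below both. The ratio combines 2 members and is given without a test.

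**Figure D3:**
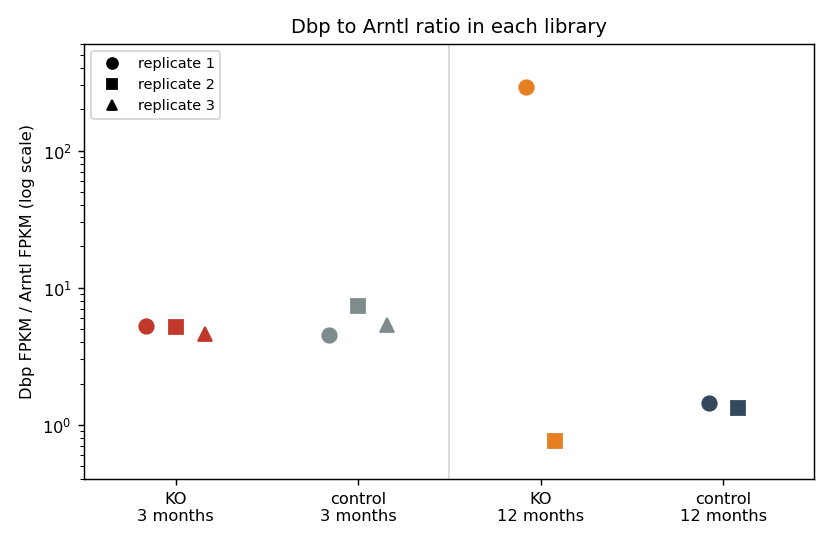
Dbp FPKM divided by Arntl FPKM (vertical axis, log scale) in every library, by group; circles, squares and triangles are replicates 1, 2 and 3, and a grey line separates the ages. The 6 libraries of 3 months lie between 4.51 and 7.35, whereas the 2 KO libraries of 12 months lie at 289 and 0.761, above and below the 2 controls.

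The difference between ages, (KO minus control at 12 months) minus (KO minus control at 3 months), was fitted over all 10 libraries. It was called for 1 of 9 members tested, Per1, and for 1.38% of 11580 genes. An unadjusted p under 0.05 was given to 4 members, Per1, Nr1d1, Npas2 and Arntl, and to 15.3% of all genes. The Per1 value was 2.23 (SE 0.41, adjusted p = 0.0259 in limma), with 2 of 2 KO libraries above the controls at 12 months and overlapping groups at 3 months. It was no longer called when either 12-month control was left out (adjusted p of 0.141 without replicate 1 and 0.119 without replicate 2). The call was also lost without control replicates 2 or 3 of 3 months, without any 1 KO library of 3 months and with no filter on low values, at adjusted p from 0.0548 to 0.0807. Without KO replicate 1 of 12 months Per1 stayed the 1 member called, beside 6.79% of all genes, and without KO replicate 2 of 12 months 7 of 9 were called, beside 3.03%. Nr1d1 had -0.82 (SE 0.25, adjusted p = 0.141) and Arntl -2.07 (SE 0.90, adjusted p = 0.308). The ages differ in library preparation and table as well, so age and preparation cannot be told apart. At 3 months Ddx3y averaged 18.2 FPKM in KO and 17.4 FPKM in control libraries, and Xist 0.202 and 0.0204 FPKM. The groups thus overlapped in both genes at 3 months but not at 12 months. Sex-linked expression therefore cannot be told apart from the difference between ages either.

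The other genes of the pathway were taken from 6 lists with 34 genes. At 3 months 31 were tested and 0 were called in limma, beside 0.746% of all genes, with a lowest adjusted p of 0.121, for Klf10. An unadjusted p under 0.05 was given to 4 of the 31 and to 18.2% of all genes. At 12 months 32 were tested and 1 was called, Nampt, beside 0.395% of all genes, and 7 had an unadjusted p under 0.05, as had 13.6% of all genes. Both KO libraries of 12 months were above both controls for 16 of the 32, and for 27.3% of all genes. Their medians were 0.01 at 3 months and 0.34 at 12 months on the log2(FPKM + 1) scale, against 0.09 and 0.01 over all genes.

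Among 6 further repressors of the loop, none was called at either age. Ciart, a repressor of the BMAL1 and CLOCK pair, was at 10.7 and 1.85 FPKM in KO libraries of 12 months against 0.436 and 0.703 FPKM in controls, above both controls in both KO libraries. Cry2, which encodes a partner of the PER proteins, was at 15.8 and 9.94 FPKM in KO libraries against 7.22 and 7.66 FPKM in controls (adjusted p = 0.355 in limma), with an unadjusted p of 0.0445. Cry1 was at 6.61 and 3.8 FPKM in KO libraries against 4.71 and 5.1 FPKM in controls, 1 KO library on each side. The E-box repressor genes Bhlhe40 and Bhlhe41 were at 26.7 and 10.8 FPKM and at 12.4 and 5.73 FPKM in KO libraries, against 14.2 and 15.6 FPKM and 5.09 and 4.2 FPKM in controls. KO replicate 1 was the highest library of 12 months for all 5. At 3 months the groups overlapped for each of the 6, with means of 2.16 FPKM in KO and 2.57 FPKM in control libraries for Cry1.

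Of 3 partners of the activators and nuclear receptors, 1 was tested at 3 months and 2 at 12 months, and none was called. Rora, which encodes an activator of Arntl through the ROR element, was at 5.61 and 3.45 FPKM in KO libraries of 12 months against 3.36 and 4.08 FPKM in controls, which overlapped. Arntl2, a paralog of Arntl, was at 0.962 and 0.416 FPKM in KO libraries against 1.46 and 1.27 FPKM in controls, lower in both.

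The third PAR bZIP gene, Hlf, split as Dbp and Tef did, at 24.4 and 4.47 FPKM in KO libraries of 12 months against 9.25 and 8.34 FPKM in controls. Nfil3, which encodes a repressor on the same D-boxes, split the other way, at 6.37 and 11.1 FPKM in KO libraries against 8.91 and 9.16 FPKM in controls. Neither was called at either age, and at 3 months both overlapped between groups. The kinases and ubiquitin ligases that set the stability of PER and CRY proteins stayed close to all genes, with a median distance between the KO libraries of 12 months of 0.18 over 8 genes. None of the 8 tested was called at either age. Fbxw11, a ligase adaptor gene, was at 17.3 and 17.7 FPKM in KO libraries of 12 months against 20.2 and 19.5 FPKM in controls (adjusted p = 0.523 in limma).

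**Figure D4:**
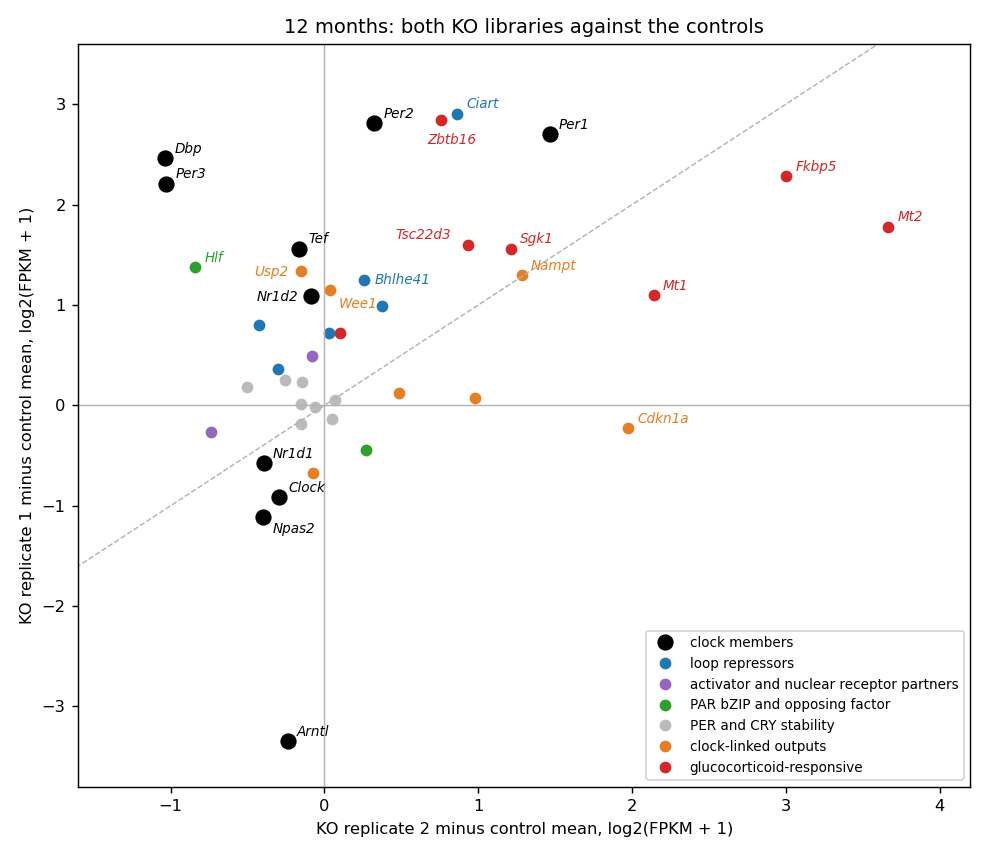
Difference from the control mean at 12 months on the log2(FPKM + 1) scale in KO replicate 2 (horizontal axis) and KO replicate 1 (vertical axis), for the clock members and 6 lists of related genes; genes on the dashed line were equal in both KO libraries. Dbp and Per3 stand at upper left, Arntl at the bottom, and Nampt lies on the line at 1.28 and 1.30.

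Among 7 clock-linked output genes, Nampt, which encodes the rate-limiting enzyme of NAD salvage, was called at 12 months. It was at 62.4 and 61.7 FPKM in KO libraries against 24.4 and 25.1 FPKM in controls, equal in both KO libraries. The difference was 1.29 (SE 0.10, adjusted p = 0.0498 in limma). That call lay just under the threshold and was lost under 7 of 12 alternatives, among them TPM scaling (0.97, adjusted p = 0.0956) and leaving out control replicate 1 (adjusted p = 0.997) or 2 (adjusted p = 0.929). At 3 months Nampt was at 29, 25.7 and 27.2 FPKM in KO libraries against 31.8, 27.8 and 26.1 FPKM in controls, which overlapped, and its difference between ages was 1.35 (SE 0.17, adjusted p = 0.00336). Among the alternatives run, TPM scaling alone ended that second call (1.14, adjusted p = 0.0669). At 3 months Klf10 (mean 8.58 FPKM in KO and 5.88 FPKM in control libraries) and Cirbp (59 and 42.5 FPKM) had the lowest p of the list, with every KO library above every control and adjusted p of 0.121 and 0.167. Cirbp, a cold-inducible RNA-binding protein gene, lay the other way at 12 months, at 55.6 and 84.9 FPKM in KO libraries against 89.4 FPKM in each control (-0.37, adjusted p = 0.531), and its difference between ages was -0.85 (unadjusted p = 0.00877, adjusted p = 0.148 in limma).

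The 7 glucocorticoid-responsive genes were listed because Per1 is also a known glucocorticoid target. All 7 were higher in both KO libraries than in both controls at 12 months, where 27.3% of all genes were, yet 0 were called in limma, 5 had an unadjusted p under 0.05, as had 13.6% of all genes, and the median difference was 1.62 against 0.01 for all genes. Fkbp5, a chaperone gene of the glucocorticoid receptor, was at 16.3 and 27.4 FPKM in KO libraries against 2.61 and 2.49 FPKM in controls (2.64, SE 0.27, adjusted p = 0.0889). Sgk1, a kinase gene, was at 50.2 and 39.2 FPKM in KO libraries against 15.6 and 17.1 FPKM in controls. Both were called for the difference between ages, at 2.34 (SE 0.27, adjusted p = 0.00221) and 1.47 (SE 0.18, adjusted p = 0.00336). Among the alternatives run, the Sgk1 call was lost under TPM scaling alone (1.26, adjusted p = 0.067), and the Fkbp5 call was lost under none. At 3 months Sgk1 overlapped between groups, while Fkbp5 was at 2.22, 1.76 and 1.93 FPKM in KO libraries against 1.22, 1.69 and 1.31 FPKM in controls. Per1, Per2 and these 7 genes were above the controls in both KO libraries of 12 months. So were Ciart, Cry2, Cipc, Bhlhe41, Wee1, Klf10, Klf15, Nampt and Gsk3a of the other lists. In KO replicate 2 Per2 was itself under 1 FPKM. Dbp, Per3, Tef and Nr1d2, and among other genes Cry1, Bhlhe40, Hlf and Usp2, were above both controls in KO replicate 1 only. The share of hormone in these patterns was not tested, and genotype label and sex-linked expression cannot be told apart at that age.

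Genes of most similar pattern were sought over the 10 libraries, by the mean absolute difference in log2(FPKM + 1) after each gene was centred within its age. Nearest to Dbp were Per3 (0.18), Tef (0.27), Usp2 (0.28), Hlf (0.30) and Chd6 (0.31), where the median over 11580 genes was 0.55. Usp2, a deubiquitinase gene, was at 102 and 35.7 FPKM in KO libraries of 12 months against 39.6 and 40.1 FPKM in controls. Nearest to Arntl were Pttg1 (0.21), Slc41a3 (0.23), Spon2 (0.25), S100a8 (0.33) and Efhd1 (0.36), where the median was 0.59. Pttg1, the gene of securin, was at 5.63 and 95.9 FPKM in KO libraries of 12 months against 71 and 68.8 FPKM in controls, low in KO replicate 1 as Arntl was. The likeness rests largely on KO replicate 1 of 12 months, and the points share tables and libraries.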

How the data were processed

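RNA of dissected hearts was sequenced in 10 libraries, grouped and numbered as labelled. The deposited values are FPKM made by the authors, 1 table per age, without counts. Per the submitters' processing notes, the builds were mm10 and GRCm38 and the tools Cufflinks 2.1.1, STAR 2.5.1b, TopHat2 2.1.0 and FastQC, without roles. The 12-month table is named as free of outliers, and how these were chosen is not stated. At 3 months 69 rows repeated an identifier and were summed.

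Testing within an age took genes that averaged 1 FPKM or more (12200 and 13179) and used log2(FPKM + 1) in limma 3.58.1 in R 4.3.3 (empirical Bayes with trend, Benjamini-Hochberg over all genes, called under an adjusted p of 0.05), which understates changes of low genes. An interaction contrast compared the ages. Folds of single libraries are ratios of FPKM with no pseudocount. The fit was tested on simulated data. Members and gene lists were chosen with earlier results of these data known. The text names all members, a fixed set of partners, called list genes and those of lowest p per list; Bmp10, Usp2, Camta1, Thra, Sphk2, Cipc, Wee1, Klf15, Gsk3a, Myh6 and Cd3g were added for the comparisons in which they stand. A gene of the partner list is not reported here. Symbols and coordinates came from GENCODE M21, matched on the gene identifier, and promoters from RefSeq. Alternatives were other pseudocounts, filters, scalings, moderation, the replicate number as a block, and leaving out each library.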

Additional observations from a re-analysis of the deposited data

Results flagged for a closer look

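Arntl was flagged because its KO libraries lay on different sides of the controls at the 2 ages: all 3 were higher at 3 months, and both were lower at 12 months. The difference between ages was -2.07 on the log2(FPKM + 1) scale (SE 0.90, adjusted p = 0.308 in limma), so the flag rests on the order of the libraries and the difference did not pass the test. Most of its size came from KO replicate 1 of 12 months, and it was -0.51 without that library. The groups did not overlap for 24.7% of all genes at 3 months and for 50.3% at 12 months. How many of all genes changed sides between the ages was not counted.

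Per1 was flagged because its difference between ages passed the test, at 2.23 (SE 0.41, adjusted p = 0.0259 in limma). Both KO libraries of 12 months were above both controls, whereas the groups overlapped at 3 months. The call was lost under 9 of the alternatives run, among them no filter on low values and the replicate number as a block.

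Of the related genes, Nampt, Fkbp5 and Sgk1 were flagged because their differences between ages passed the test in limma, at 1.35, 2.34 and 1.47. Wee1, a cell-cycle kinase gene, was flagged because every KO library was lower than every control at 3 months and both were higher at 12 months, and its difference between ages was 0.98 (adjusted p = 0.235 in limma). Cirbp was flagged for the opposite order, higher in every KO library at 3 months and lower in both at 12 months, and its difference between ages was -0.85 (adjusted p = 0.148 in limma). The differences of Wee1 and Cirbp did not pass the test, and the share of all genes that changed sides as they did was not counted. The ages came from separate tables, so age and preparation cannot be told apart for these genes either. Sex-linked expression separated the groups at 12 months and not at 3 months, so its part cannot be told apart for any flagged gene.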

How the results depend on the processing

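Over 394 recomputed differences of members, 360 kept direction and side of the threshold and 9 lost the call (all Per1 between ages). Another 17 gained a call with the sign kept, all with a KO library of 12 months left out. The last 8 changed sign, each when 1 library was left out. Changes of sign were counted apart, on whichever side of the threshold they fell. With 1 library left out at a time, Dbp at 3 months ran from -0.024 to 0.36. At 12 months Dbp ran from -1.03 to 2.46, Per3 from -1.03 to 2.21, Tef from -0.16 to 1.56 and Nr1d2 from -0.086 to 1.09, and between ages Dbp ran from -1.19 to 2.30, Per3 from -0.79 to 2.44 and Tef from -0.40 to 1.32, each lowest without KO replicate 1 of 12 months and highest without KO replicate 2. Leaving out each library gave 0 to 0 members called at 3 months, 0 to 9 at 12 months and 0 to 7 between ages. Members called between ages numbered 0 with no filter, with a minimum mean of 5 FPKM (Per1 then untested) and with the replicate number as a block. Counts over all genes ran from 22 to 81 at 3 months, 0 to 4409 at 12 months and 40 to 787 between ages when each library was left out. With no filter they were 10 at 3 months and 17 at 12 months, and with the replicate block 29 at 3 months and 55 between ages. With that block the adjusted p of Per1 was 0.0713 and of Nampt at 12 months 0.139. Same-numbered libraries did not deviate together (correlations -0.12, -0.46 and -0.14 at 3 months, -0.01 at 12 months). TPM scaling moved the median over all genes to -0.27 both at 12 months and between ages and turned no member's sign. Called genes split into 76 higher and 15 lower at 3 months (43 and 18 with median-of-ratios scaling), 22 and 30 at 12 months (14 and 33 with TPM) and 76 and 84 between ages (129 and 88 with median-of-ratios scaling, 33 and 89 with TPM). The Dbp to Arntl ratio, averaged over the KO libraries, was 0.761 to 289 at 12 months and 4.90 to 5.24 at 3 months when 1 library was left out, and over controls 1.32 to 1.46 and 4.93 to 6.35. The cause was not tested.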
